A study of Homo sapiens with 4 samples.

Results

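To see how the GADD45 genes and the response genes of the tumour suppressor p53 behaved in renal carcinoma cells given MCP-1, the deposited log2 signals of 9 named genes were examined. These were GADD45A, GADD45B and GADD45G, the cell cycle inhibitors CDKN1A, BTG2 and PLK3, the p53 cofactor TP53INP1, and the p53 inhibitors MDM2 and PPM1D. They were selected by gene symbol, 1 probe set per gene, and a probe set was named for 8 of the 9 among 17687 named genes in all, BTG2 not being analysed here. The cells were 786-O (CRL-1932), an established human clear cell renal carcinoma line that lacks functional VHL. RNA came from 2 untreated dishes and from 2 dishes given recombinant MCP-1 (also called CCL2), for which the sample labels state 5 ng/mL and 16 h, whereas the methods text of the paper names a longer exposure. All dishes were grown in RPMI1640 with serum, and the untreated cells were of the same passage. It is 1 cell line, so the dishes do not sample different tumours.

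The GADD45 proteins (growth arrest and DNA damage inducible) are small acidic proteins without enzyme activity of their own. They bind the kinase MAP3K4, PCNA and the CDK1-cyclin B complex, and connect stress to p38 and JNK signalling, cell cycle arrest and DNA repair. p53 is a transcription factor that DNA damage stabilizes. It turns on genes of arrest, repair and apoptosis, and also MDM2 and PPM1D, which switch p53 off again. A second route to some of the same genes is the integrated stress response, in which phosphorylation of the initiation factor eIF2 alpha raises the transcription factors ATF4 and CHOP. By textbook knowledge GADD45A and CDKN1A belong to both routes, MDM2, PPM1D, BTG2, TP53INP1 and PLK3 are p53 targets with no such standing in the integrated stress response, and GADD45B and GADD45G respond mainly to other inputs, among them NF-κB and TGF-β for GADD45B. Single genes may be placed otherwise by other sources.

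GADD45A, GADD45B and CDKN1A had lower signals in MCP-1-treated than in untreated 786-O cells, TP53INP1 had a higher one, and MDM2, PPM1D, PLK3 and GADD45G differed by less than 0.2 on the log2 scale. The difference was largest for GADD45A, at 2.66-fold lower. The genes were put together with results of this comparison in view, so their differences are given as a description, without p-values. Treated means were lower for 7 of the 8 measured genes (47.7% of all probe sets had a lower mean) and higher for 1, with a median difference of -0.15, against a median of 0.01 over all 21448 probe sets tested. None of the 8 passed an adjusted p of 0.05 in the limma fit across all probe sets, where 7 probe sets did, which is 0.0326% of them (0.0233% lower and 0.00932% higher). The groups did not overlap for 4 lower genes and 1 higher gene. Over all probe sets both treated arrays lay below both untreated ones for 15.2% and above them for 16.3%.

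**Figure D1:**
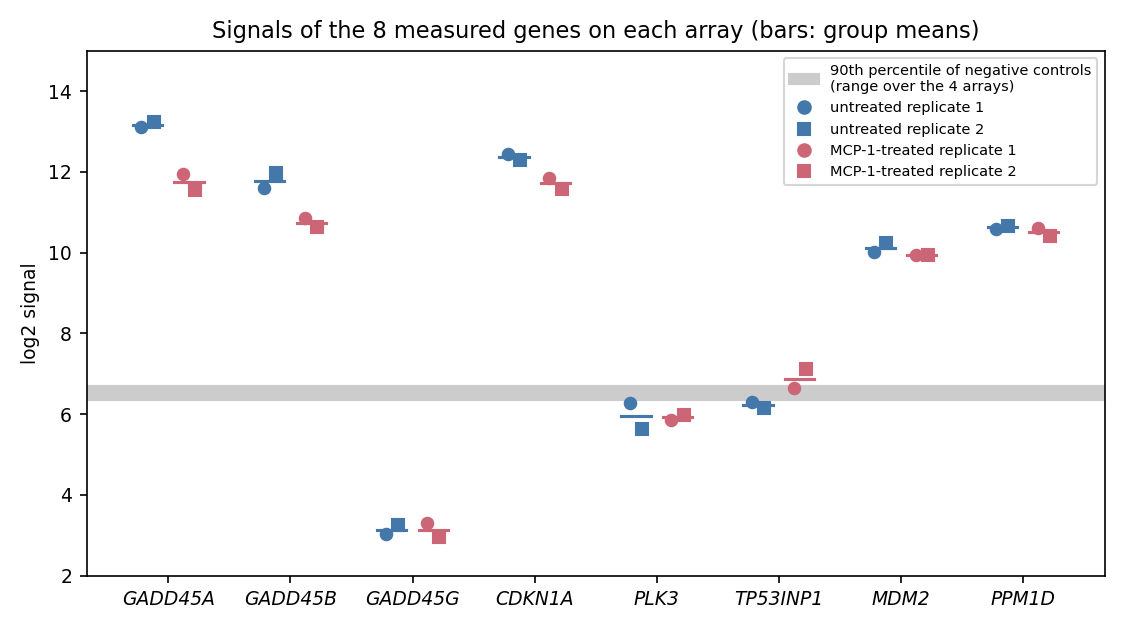
Log2 signal (y axis) of the 8 measured genes (x axis) on each of the 4 arrays, untreated in blue and MCP-1-treated in red, with bars for the group means and a grey band for the background level (90th percentile of negative control probe sets), 6.36 to 6.70 over the arrays. GADD45A, GADD45B and CDKN1A sit far above the band with treated arrays below untreated ones, whereas GADD45G, PLK3 and the untreated arrays of TP53INP1 sit below it.

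The arrays were alike as a whole. Their median log2 signals ran from 6.20 to 6.28, and they correlated across probe sets at r between 0.993 and 0.995 (genes are not independent replicates). Of 8 measured markers of kidney epithelium and renal carcinoma, 7 exceeded the background level on every array, here the 90th percentile of that array's negative control probe sets, among them PAX8, PAX2 and CD70, and the exception was LRP2, a receptor of the proximal tubule. Of 8 leukocyte markers CD68 alone did so, and none of 4 endothelial or 4 fibroblast markers. The summed linear signal of the leukocyte markers was 1587 and 1718 in untreated and 1637 and 1746 in treated cells, that of the endothelial markers 52.9 and 65.6 against 71.3 and 84.3, and that of the fibroblast markers 115.9 and 96.1 against 93.0 and 94.9. The part of these small differences in the results was not tested. PTPRC, CD3D and PECAM1, which define leukocytes, T cells and endothelium, were below background on all arrays. A lower signal can stand for less RNA per cell or for fewer cells that carry it, which cannot be told apart in bulk RNA.

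GADD45A was the member with the largest difference. It is the classical p53-induced member of its family and is also raised by ATF4. Its log2 signal was 13.10 and 13.24 on the untreated arrays and 11.96 and 11.56 on the treated arrays. Both treated arrays were more than 1 log2 unit below both untreated ones. The means were 13.17 ± 0.10 and 11.76 ± 0.28 (SD, n = 2 arrays per group), a difference of -1.41 (limma standard error 0.26), and it was -1.15 and -1.68 between arrays of replicate number 1 and 2. Of all 21448 probe sets 14 had a lower difference, so that GADD45A ranked 15 from the bottom, and it ranked 11 among the 10012 above background on all 4 arrays.
GADD45B, a family member that NF-κB and TGF-β induce, had signals of 11.60 and 11.96 in untreated and 10.86 and 10.63 in treated cells. Again the groups did not overlap, and the spread within the untreated group (SD 0.26) was wider than that within the treated group (SD 0.16). The difference was -1.03 (limma standard error 0.26), 2.05-fold lower, and -0.73 and -1.33 by replicate number. It ranked 44 from the bottom over all probe sets. A fold of at least 1.5 in this direction was reached by 3 of the 8 measured genes, GADD45A, GADD45B and CDKN1A, and by 2.21% of all probe sets (1.34% of those above background on all arrays).
GADD45G, the third relative, gave 3.03 and 3.24 in untreated and 3.30 and 2.96 in treated cells, below background on all 4 arrays. The groups overlapped, and its difference of -0.01 (limma standard error 0.26) therefore says nothing about a transcript that was not measurably above background.
The promoter of GADD45B is shown because it is the member with the largest difference that has a window in the RefSeq table (GRCh38.p14, chr19:2475877-2476176, plus strand, 250 bases before to 50 after the start of the gene). Capitals mark a TATA box match (TATAAA), which starts at position -31 from the start site.
GADD45B: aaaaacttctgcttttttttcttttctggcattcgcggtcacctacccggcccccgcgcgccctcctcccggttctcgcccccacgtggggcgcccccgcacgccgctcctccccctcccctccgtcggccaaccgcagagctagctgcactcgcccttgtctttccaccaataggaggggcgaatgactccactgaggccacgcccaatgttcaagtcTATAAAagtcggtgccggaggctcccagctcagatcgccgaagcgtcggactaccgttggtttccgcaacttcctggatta

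CDKN1A, BTG2 and PLK3 restrain the cell cycle. CDKN1A encodes p21, which blocks cyclin-dependent kinases and PCNA and is the main effector of p53-dependent G1 arrest. Its log2 signal was 12.45 and 12.28 in untreated and 11.86 and 11.59 in treated cells. The treated arrays were both lower, with a gap between the groups larger than the spread within either. The means were 12.37 ± 0.12 and 11.72 ± 0.19 (SD, n = 2 arrays per group), which gives a difference of -0.64 (limma standard error 0.24), 1.56-fold lower. By replicate number it was -0.59 and -0.70, the closest agreement among the members with a fold of at least 1.5. PLK3, a polo-like kinase that stress activates and that can phosphorylate p53, had signals of 6.27 and 5.64 in untreated and 5.87 and 5.99 in treated cells. It was below background on every array, the groups overlapped, and the difference of -0.02 had opposite signs in the replicate numbers (-0.40 and 0.35).
The promoter windows of CDKN1A (chr6:36678464-36678763) and PLK3 (chr1:44800127-44800426), both on the plus strand of GRCh38.p14 in RefSeq, are shown since they contrast a gene with a lower signal and one with none above background. Capitals in PLK3 mark a match to TGATGNAA, the core of the composite element that ATF4 binds with C/EBP partners, starting at -133, while the window of CDKN1A held no match to any motif searched. The best known p53 sites of CDKN1A lie further upstream than the window reaches.
CDKN1A: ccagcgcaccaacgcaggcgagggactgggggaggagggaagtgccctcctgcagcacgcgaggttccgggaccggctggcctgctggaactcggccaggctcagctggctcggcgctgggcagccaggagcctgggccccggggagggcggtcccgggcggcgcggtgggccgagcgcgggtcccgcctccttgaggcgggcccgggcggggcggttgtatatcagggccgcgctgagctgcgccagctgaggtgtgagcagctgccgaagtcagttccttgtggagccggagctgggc
PLK3: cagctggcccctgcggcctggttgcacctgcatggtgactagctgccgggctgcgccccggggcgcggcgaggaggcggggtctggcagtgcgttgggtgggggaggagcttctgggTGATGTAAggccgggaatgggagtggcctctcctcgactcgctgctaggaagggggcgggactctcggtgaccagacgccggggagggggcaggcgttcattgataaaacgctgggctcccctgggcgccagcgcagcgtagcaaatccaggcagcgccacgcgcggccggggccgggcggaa

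TP53INP1 was the measured gene with a higher treated signal. It encodes a stress protein that promotes phosphorylation of p53 and takes part in autophagy. The signals were 6.31 and 6.16 in untreated and 6.64 and 7.11 in treated cells. The untreated arrays gave values under the background level (6.48 and 6.36) and the treated ones values over it (6.36 and 6.70), so the level in untreated cells is not measured above background and the size of the difference is uncertain. It was 0.64 (limma standard error 0.26), 1.56-fold higher, and 0.33 and 0.96 by replicate number. Among all probe sets 2.44% were at least 1.5-fold higher, and 0.599% of those above background on all arrays, a group to which TP53INP1 does not belong.

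MDM2 and PPM1D, which close the feedback on p53, were little different. MDM2 is the ubiquitin ligase that marks p53 for degradation. It had signals of 10.02 and 10.23 in untreated and 9.95 and 9.94 in treated cells. Its groups did not overlap, but the nearest untreated and treated arrays were 0.07 apart, less than the SD of 0.15 in untreated cells. The difference was -0.18 (limma standard error 0.25). PPM1D, the phosphatase WIP1, which removes damage-induced phosphates from p53 and its kinases, had 10.59 and 10.67 against 10.62 and 10.41, with overlapping groups. The difference was -0.12 (limma standard error 0.25), and 0.03 and -0.26 by replicate number. Both genes were above background on all arrays, and the differences of both were smaller than their standard errors.
Their promoters are shown for a p53 element and a cyclic AMP response element. In MDM2 (chr12:68808767-68809066, plus strand, GRCh38.p14 from RefSeq) capitals mark a match to the p53 element, which starts at -94 in the window of a downstream start site of the gene and differs from the consensus in 2 of 20 letters. In PPM1D (chr17:60599943-60600242, plus strand) they mark a TGACGTCA match, the cyclic AMP response element bound by CREB and ATF proteins, which starts at -61.
MDM2: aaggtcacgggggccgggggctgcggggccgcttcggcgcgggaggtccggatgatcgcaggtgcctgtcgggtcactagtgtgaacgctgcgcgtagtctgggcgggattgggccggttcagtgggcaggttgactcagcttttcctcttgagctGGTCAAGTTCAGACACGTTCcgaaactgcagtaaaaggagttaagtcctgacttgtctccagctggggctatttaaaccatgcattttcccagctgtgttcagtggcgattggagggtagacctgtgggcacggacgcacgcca
PPM1D: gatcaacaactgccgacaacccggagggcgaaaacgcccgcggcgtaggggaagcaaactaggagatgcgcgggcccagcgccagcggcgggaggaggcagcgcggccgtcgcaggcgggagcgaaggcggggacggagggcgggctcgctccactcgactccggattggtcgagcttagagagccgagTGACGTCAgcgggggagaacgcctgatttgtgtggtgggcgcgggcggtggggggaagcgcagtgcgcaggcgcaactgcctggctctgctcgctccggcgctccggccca
Promoter windows of members from the table were searched on both strands for the motifs spelled out above (TGATGNAA, TGACGTCA and the TATA box), for the AP-1 motif TGANTCA, and for the NF-κB consensus and the p53 consensus of adjoining decamers with up to 2 mismatches, an allowance set after the MDM2 sequence had been seen. Among 35116 windows of the same length, which include several per gene, TGATGNAA was found in 3.62%, TGACGTCA in 1.85%, the AP-1 motif in 7.71%, the TATA box in 11.5%, the NF-κB consensus in 5.91% and the p53 element in 0.649%. Besides the matches shown, GADD45G held TGATGNAA at -102 and MDM2 held the AP-1 motif at -118, no matches overlapped, and the window of BTG2 held none. These are matches of letters and not measured binding sites. Of the members with a TGATGNAA match, PLK3 and GADD45G, neither was above background. No window of GADD45A or TP53INP1 was searched, so nothing is known here of their motifs. In the same search of shared and stress response genes outside the members, ATF3 held TGATGNAA at -191. DDIT3, SESN2, DDIT4, GDF15, PMAIP1 and BBC3 did not hold it.

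Members with a place in the integrated stress response had lower signals by more than 1.5-fold, and of those that are p53 targets alone none did. The 2 shared members, GADD45A and CDKN1A, had differences of -1.41 and -0.64. The 4 measured p53-only members ran from -0.18 for MDM2 to 0.64 for TP53INP1, with a median of -0.07. Of these, PLK3 was below background on all arrays and TP53INP1 on both untreated arrays, so neither could show a fall. The contrast thus rests on MDM2 and PPM1D as the p53-only members above background on all arrays. GADD45B, placed in neither group, was nearer to the shared genes at -1.03. The difference between the groups was not tested, because the genes were chosen with this comparison known.

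**Figure D2:**
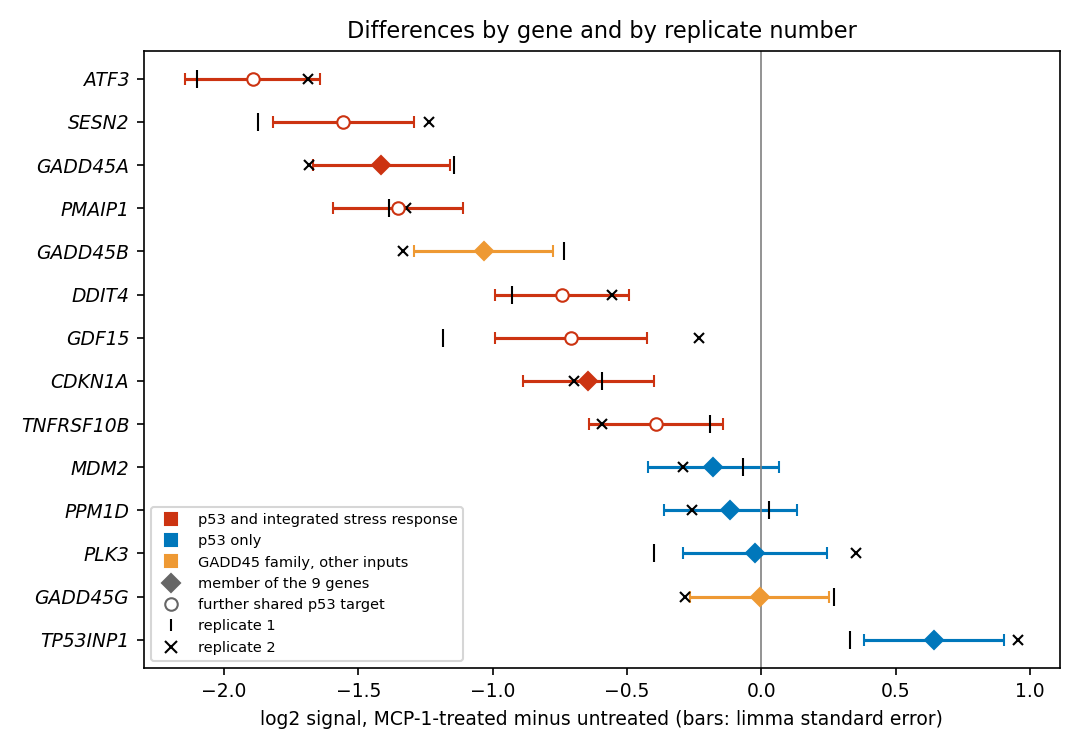
Difference in log2 signal, MCP-1-treated minus untreated (x axis), for the 8 measured genes (diamonds) and 6 further p53 targets shared with the integrated stress response (circles), with limma standard errors as bars and the difference at each replicate number as black marks. All 8 shared genes (red) lie left of 0 at both replicate numbers, and their mean differences run from -0.39 to -1.89. By contrast, MDM2, PPM1D and PLK3 lie within 1 standard error of 0.

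Further genes of both kinds were drawn from lists written from textbook knowledge, with earlier results of these data already known. Of 6 measured p53 targets that the integrated stress response also induces, the limma fit called 1 lower and 0 higher, leaving 5 that did not pass. Over all probe sets 0.0233% were called lower. The gene called was ATF3, a stress-induced transcription factor, at a log2 difference of -1.89 (limma standard error 0.25, adjusted p = 0.0430). It had signals of 8.62 and 8.76 in untreated and 6.52 and 7.08 in treated cells, the latter little above the background levels of 6.36 and 6.70, so the size of the fall is uncertain. This call and those of CTH, CHAC1 and DDIT3, given further on, were lost with no replicate block and with any 1 array left out, where limma called 0 probe sets.
SESN2, a sestrin that restrains mTORC1, had signals of 11.77 and 11.41 in untreated and 9.90 and 10.17 in treated cells, a difference of -1.56. PMAIP1, the gene of the pro-apoptotic BH3 protein NOXA, had 10.73 and 10.68 against 9.34 and 9.36, a difference of -1.35 with almost no spread within the groups. The other differences were -0.74 for DDIT4, an inhibitor of mTORC1, -0.71 for GDF15, a secreted stress cytokine, and -0.39 for the death receptor TNFRSF10B. In all 6 genes both treated arrays lay below both untreated ones, as in 15.2% of all probe sets. At least 1.5-fold lower were 5 of the 6, as were 2.21% of all probe sets. The median was -1.05. Background was exceeded by all 6 on every array. BBC3 was not analysed here.
Of 36 other p53 targets measured, 29 exceeded background on every array, and none of the 36 passed the limma fit in either direction. Treated means were higher for 18 and lower for 18, and the median difference was 0.00, against 0.01 for all probe sets. The groups did not overlap for 6 lower genes (16.7%) and 4 higher ones (11.1%), shares close to the 15.2% and 16.3% of all probe sets. The largest differences were those of the receptor EDA2R at -0.67, APAF1, the apoptosome scaffold, at 0.59, RRM2B, a subunit of ribonucleotide reductase, at -0.51, and TRIAP1, a p53-induced survival factor, at 0.41. For TRIAP1 the groups overlapped, and the difference was -0.05 and 0.88 by replicate number. With the members of each kind added, 8 of 8 shared genes and 21 of 40 p53-only genes had a lower treated mean. Their medians were -1.05 and -0.02. These counts are a description only, since members and lists were chosen with results of these data known. The difference between the kinds was not tested.

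**Figure D3:**
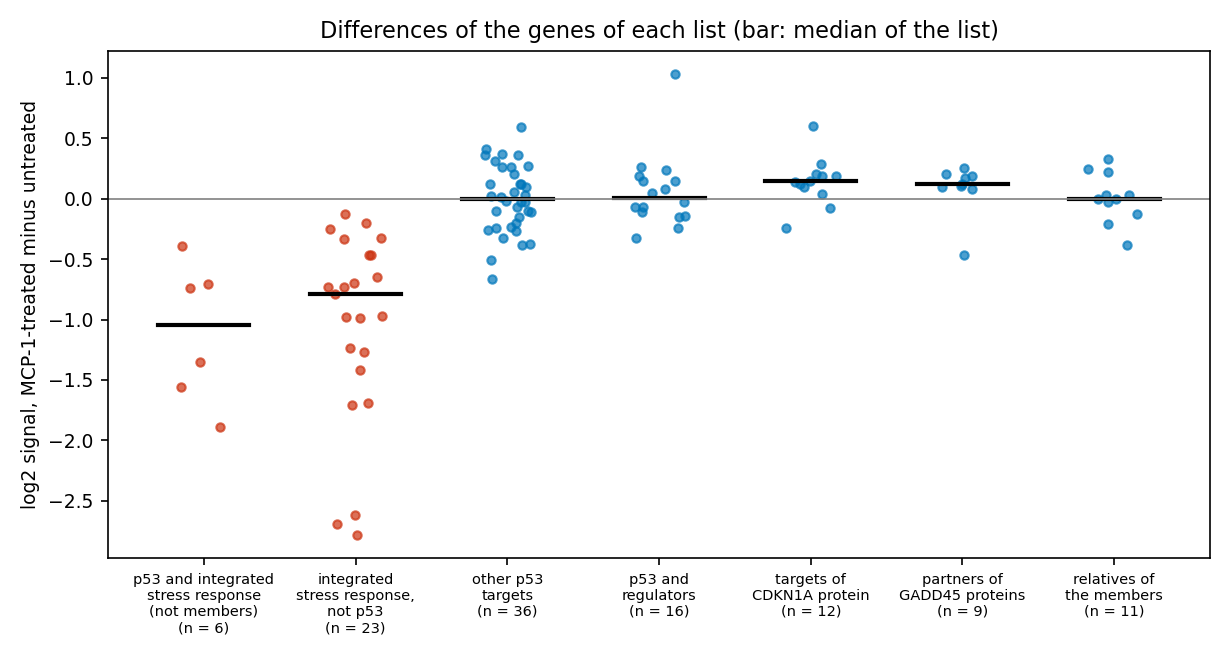
Difference in log2 signal, MCP-1-treated minus untreated (y axis), for each measured gene of 7 lists (x axis, with the number of genes), a bar marking the median of the list. The 2 lists of the integrated stress response (red) have medians of -1.05 and -0.79 with no gene above 0, and the medians of the other lists lie between 0.00 and 0.14.

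Integrated stress response genes that are no textbook p53 targets were lower as well, which the shared list has to be read beside. All 23 measured had a lower treated mean, against 47.7% of all probe sets, and the median was -0.79. The limma fit called 3 lower, against 0.0233% of all probe sets, and 0 higher. The genes called were CTH, an enzyme that makes cysteine, CHAC1, which degrades glutathione, and DDIT3, the gene of CHOP. Their differences were -2.78, -2.69 and -2.62 (limma adjusted p = 0.00467, 0.00467 and 0.00628). The treated signals of CTH, 5.95 and 5.66, were below background, and the mitochondrial enzyme gene PCK2 came next at -1.71 without passing. DDIT3 (also GADD153) and PPP1R15A (also GADD34) share the GADD name with the GADD45 genes but not their structure. PPP1R15A, picked for its name, had signals of 9.01 and 9.08 in untreated and 8.19 and 8.60 in treated cells, a difference of -0.65.

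Genes around p53 and around the GADD45 and p21 proteins had list medians between -0.07 and 0.14, and none of them passed the limma test in either direction. Of 16 measured genes of p53 regulation, treated means were higher for 8 and lower for 8, with a median of 0.01. The largest difference was that of the damage kinase gene ATR at 1.03 (5.53 and 6.27 in untreated, 6.73 and 7.14 in treated cells, the untreated arrays below background). It was followed by RCHY1, a ubiquitin ligase for p53, at -0.32, the deubiquitinase USP7 at 0.26 and the p53 inhibitor MDM4 at -0.24.
Of 9 measured binding partners and downstream kinases of GADD45 proteins, 8 had a higher treated mean and 1 a lower, with a median of 0.13. MAP2K6, a p38 kinase kinase below background, was the lower one at -0.46, and ERCC5, a repair nuclease, PCNA, the replication clamp, and MAP2K3, another p38 kinase kinase, stood at 0.26, 0.21 and 0.18. MAP3K4, the kinase that GADD45 proteins activate, had a difference of 0.08 with overlapping groups.
Of 12 cyclins, kinases and other proteins that p21 binds, 10 had a higher treated mean and the median was 0.14. Cyclin E2 (CCNE2) had signals of 9.19 and 9.27 in untreated and 9.71 and 9.96 in treated cells, a difference of 0.61. Cyclins D3 (CCND3) and D2 (CCND2) stood at 0.29 and -0.24, the latter below background. The lists of GADD45 partners and of p21 targets share CDK1, CCNB1 and PCNA, so they are not independent. Over all probe sets 47.7% had a lower treated mean. Both lists had lower medians at replicate number 2 (-0.03 and 0.04) than at number 1 (0.24 and 0.23).
Among the other cyclin-dependent kinase inhibitors, CDKN1B, the gene of p27, had the largest difference at -0.49 (-0.13 and -0.85 by replicate number), followed by CDKN2D at -0.21, CDKN2B at 0.17 and CDKN1C at -0.07. Of these CDKN2B and CDKN1C were below background, as was CDKN2A at 2.53 to 3.09. Relatives of the members stood at -0.39 for PLK2, 0.33 for PLK5, 0.24 for TOB1 and 0.22 for PLK4, with a median of 0.00 over 11 genes. PLK2 was low on 1 treated array (13.42 and 13.49 in untreated, 13.57 and 12.56 in treated cells), and PLK5 was below background on all arrays.

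The profile of GADD45A over the 4 arrays was compared with those of 8772 other named probe sets above background on all arrays, by the Euclidean distance between log2 values centred on each gene's mean. The 5 nearest were SLC6A9, a glycine transporter gene (distance 0.26), LRATD2 (0.26), STC2, the gene of a secreted glycoprotein that the integrated stress response induces (0.27), IRF1, an interferon regulatory factor (0.32), and CBS, an enzyme of cysteine synthesis from homocysteine (0.32). Their differences were -1.19, -1.29, -1.27, -1.10 and -1.16. Of the members GADD45B was the nearest to GADD45A, at rank 9 with a distance of 0.43. CDKN1A followed at rank 69, and MDM2 and PPM1D were at ranks 1323 and 1747. The distance did not separate the routes, since CHAC1 and DDIT3 of the integrated stress response, with larger differences than GADD45A, were at ranks 1487 and 2475. The profiles rest on 4 arrays and share their normalization, and the distance is dominated by the difference between the groups.

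**Figure D4:**
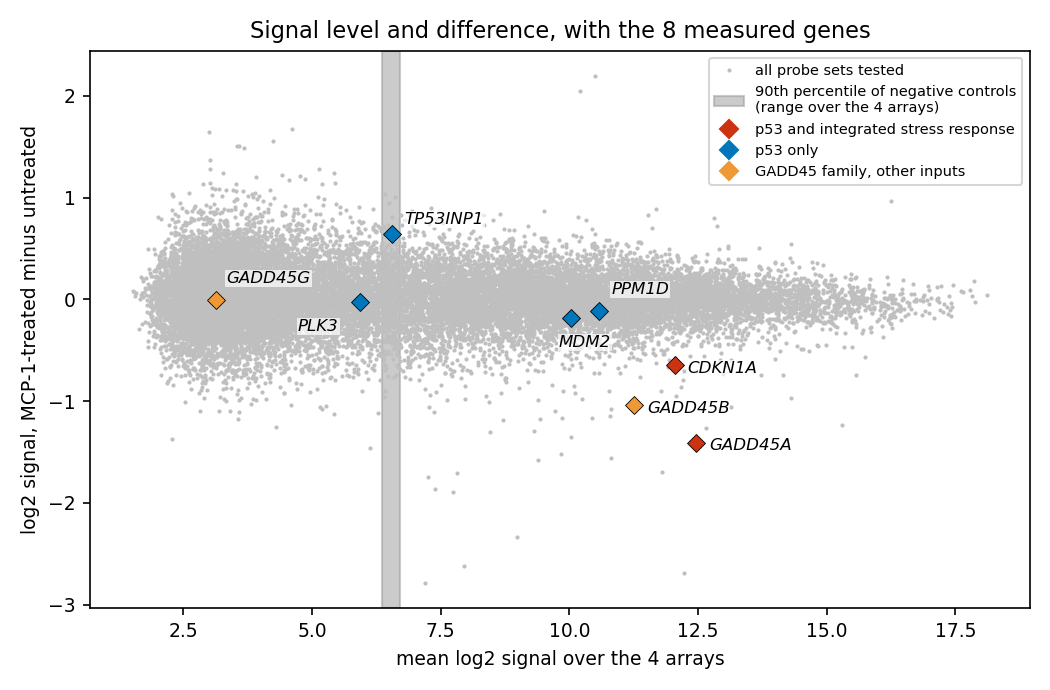
Difference in log2 signal, MCP-1-treated minus untreated (y axis), against mean log2 signal over the 4 arrays (x axis) for all 21448 probe sets tested (grey) and the 8 measured genes (diamonds, by their known inputs), with the range of background levels as a grey band. GADD45A, GADD45B and CDKN1A, at -1.41, -1.03 and -0.64, lie at the lower edge of the cloud at high signal, and TP53INP1, at 0.64, near the upper edge of the wider cloud at low signal.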

How the data were processed

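RNA of 4 dishes of 786-O cells, 2 untreated and 2 MCP-1-treated, was hybridized to Clariom S arrays, 1 array per dish. The log2 signals deposited by the authors came from Affymetrix Expression Console 1.4, which applied Signal Space Transformation and RMA across the arrays. This step was not redone, as the work started from the deposited table. The table held 24351 probe sets, and without its 2903 controls 21448 were tested, of which 17709 carried 1 gene symbol and 3739 none. For 20 genes with several probe sets the one with the highest mean was used. The build behind the probe sets was not given in the sources used here. The 612 negative control probe sets gave the background level of each array, their 90th percentile there. The number of arrays limits the precision.

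The model (limma 3.58.1, R 4.3.3) held terms for group and for replicate number, after the paired test in the methods of the study, with Benjamini-Hochberg adjustment across the probe sets tested. The fit has 1 residual degree of freedom and 9.6 prior degrees of freedom. Its standard errors and p-values therefore rest mostly on a variance pooled over all probe sets, and less on each gene's spread between these dishes. Over the measured members the standard errors ran only from 0.24 to 0.27. They do not cover other cell lines or tumours. The script was checked on simulated data. The genes and lists were chosen with earlier results of these data known. Named genes are the 9 members, the p53 targets shared with the integrated stress response, DDIT3, up to 4 genes per other list with the largest absolute difference, and the 5 probe sets nearest to the member with the largest difference. Cell type markers are named besides, and PPP1R15A, MAP3K4 and CDKN2A fall outside the rule, being picked with their values already seen. Genes without a named probe set (among them BTG2 and BBC3) were not analysed here. Also tried were a model lacking the replicate block, removal of dim probe sets (mean under the 25th percentile of all, or under the 90th percentile of negative controls), centring, quantile normalization, a trended robust variance prior, each array left out, each replicate number alone, the mean over probe sets of a gene, the methods' t-test, and a p and fold threshold. Python 3.11.15 and matplotlib 3.10.9 were used for tables and figures.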

Additional observations from a re-analysis of the deposited data

How the results depend on the processing

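The directions of GADD45A, GADD45B, CDKN1A, MDM2 and TP53INP1 were kept under every alternative that gave them a value, and those of PPM1D, PLK3 and GADD45G were not. GADD45A ranged from -1.68 to -1.15 over the alternatives, GADD45B from -1.33 to -0.73, CDKN1A from -0.78 to -0.51 and TP53INP1 from 0.33 to 0.96. PPM1D reached 0.03 at replicate number 1, PLK3 ran from -0.40 to 0.35, and GADD45G from -0.28 to 0.27. The negative control filter removed probe sets with a mean under 6.11, the 90th percentile of the controls' mean signals. This cut lies under the background level of every array. It left TP53INP1 in and PLK3 and GADD45G out.

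The count of 7 probe sets past the adjusted p (5 lower) depended on the fit. With no replicate block it was 0 (smallest adjusted p = 0.0778 from limma, 968 probe sets at an unadjusted p under 0.05), and deviations of same-numbered arrays from their group means correlated at -0.0466 across probe sets, so equal numbers do not show a pairing. It was also 0 on centred and on quantile-normalized arrays and without any 1 of the 4 arrays (0 to 0, no block). With the negative control filter it was 49 (43 lower). With a trended robust variance prior, estimated with infinite prior degrees of freedom, it was 69 (52 lower). Among the calls in each were 2 of the 8 measured genes, GADD45A and GADD45B. The methods' t-test with a fold of at least 2 gave 20, and a limma p under 0.05 with a fold of at least 1.5 gave 907. ATF3 was called under those 2 settings of filter and prior and with the filter at the 25th percentile, and not with no block, centring, quantile normalization or an array left out.

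The median of the members was -0.15, and -0.41 with the negative control filter. It was -0.29 at replicate number 2, and from -0.22 to -0.13 with an array left out. That of the p53 targets shared with the integrated stress response was -1.28 and -0.91 at replicate numbers 1 and 2, and -1.18 to -0.94 with an array left out. That of the other stress response genes was -0.997 at number 2 and -0.95 to -0.79 with an array left out. The other p53 targets stayed between -0.08 and 0.03. The regulators of p53 had 0.0944 at number 2 and -0.0381 to 0.137 with an array left out. The other kinase inhibitors, 5 genes, moved most. Their median was -0.14 without probe sets under the 25th percentile and -0.35 with the negative control filter. It was -0.13 and -0.25 at numbers 1 and 2, and -0.30 to 0.12 with an array left out.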
